A study of Mus musculus with 30 samples.

Results

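MCA-948 and MCA-972 are cell lines made from separate fibrosarcomas, tumors of connective tissue cells, that the carcinogen 3-methylcholanthrene (MCA) had induced in mice. Both lines carry the label "sensitive", meaning that the study's transplantation assay found their growth held back by cells bearing NK1.1, a surface protein of NK cells, ILC1 and NKT cells. The comparison set all 8 tumors grown from MCA-948 against all 4 grown from MCA-972, 12 of the 30 tumors in the series, and asked how the transcriptomes of lines that share this label differ. Members were chosen by tumor title alone, and no measured value was used.

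The 12 tumors shared every labelled property other than the line. The labels give Ncr1Cre R26DTA as the strain of both lines (a genotype in which cells that have switched on Ncr1, the gene of the NK cell receptor NKp46, make diphtheria toxin and die), C57BL/6 as background, and fibrosarcoma as tissue. The tumors grew in C57BL/6 mice, and RNA was taken after cells with the leukocyte protein CD45 had been removed on magnetic beads. Ages, sexes and treatments of the mice are not given in the sources used here. The series describes hosts with and without NK cells, and 4 MCA-948 titles hold the letter W, 4 hold the letter a, 3 MCA-972 titles hold a and 1 holds neither, but nothing given here says which letter stands for which host. Each line comes from 1 primary tumor, so 8 and 4 tumors measure the spread between transplants of 1 line and not between fibrosarcomas.

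NK cells are lymphocytes that weigh activating against inhibitory signals from the cell they touch. NKG2D and DNAM-1 are activating receptors whose ligands appear on stressed and transformed cells, while MHC class I molecules on the target engage inhibitory receptors. Interferons raise MHC class I, antigen processing and a set of antiviral proteins, and the matrix, chemokines and growth factors that fibroblast-like tumor cells secrete decide much of what immune cells meet in the tissue. The MCA fibrosarcoma is a classical model for how NK cells and interferon shape a tumor.

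The 12 libraries held 29765480 to 46537062 counts in MCA-948 (median 37645606) and 37623787 to 40088940 in MCA-972 (median 37998954.5; exact permutation test of means, two-sided p = 0.5495). More genes had at least 1 count in MCA-972 (22625 to 23329) than in most MCA-948 tumors (21151 to 23188; exact permutation p = 0.01616), and its 10 most counted genes took 7.39 to 9.39% of all counts against 5.31 to 6.87% (p = 0.00404). No pair of the 12 libraries was identical. Pearson correlations across the genes tested were taken on DESeq2's variance-stabilised values, and genes are not independent replicates. They were 0.982 to 0.996 for the 28 pairs within MCA-948, 0.991 to 0.995 for the 6 pairs within MCA-972 and 0.920 to 0.947 for the 32 pairs between the lines. The library numbers fall into 3 series and the index names into 2 sets, and no series and no index set held tumors of both lines, so line and library run cannot be told apart within a run. A term for either could be fitted only through MCA-969, a line that had tumors in 2 series and in both index sets. Counts of list members that a term moved by more than 1.5 times are given with it below. In MCA-969, the 4 tumors of index set 1 all held the letter W and the 4 of index set 2 the letter a. The index term therefore cannot be told apart from the title letter, whatever that letter stands for. The labels call 6 of the 8 MCA-969 tumors non-sensitive but W-1D and W-2D sensitive. W-1D held 1626 CPM (counts per 1000000, scaled by the TMM method) of Met against 73.1 to 315 CPM in the other 7. Both terms were therefore also fitted without W-1D, and the series term then rests on 1 MCA-969 tumor. The third series held only MCA-943 and MCA-948, so its 6 MCA-948 tumors do not inform the difference between the lines under the series term. On the side of MCA-948 that difference rests on the 2 tumors of the second series, both with the letter a. The MCA-969 tumors of the second series, W-1D and W-2D, both hold the letter W.

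Markers of other cell types were low or overlapped between the lines for most lists, and their part in the results was not tested. The 12 endothelial markers summed to 33.7 to 623 CPM in MCA-948 and 74.7 to 190.1 CPM in MCA-972, with none of 12 called. Pan-leukocyte markers summed to 17.5 to 50.2 and 11.03 to 37.3 CPM, myeloid markers to 43.9 to 209.6 and 56.9 to 142 CPM, T cell markers to 0.730 to 2.20 and 0.628 to 2.74 CPM and erythroid markers to 63.5 to 2876 and 313 to 2434 CPM. Of the 16 myeloid markers 1 was called, higher in MCA-972 (1 to 4 with any 1 tumor left out), but with the index term 6 were called higher in MCA-948, and 5 with the index term without W-1D. The summed level of the 6 Schwann cell markers did not overlap between the lines, at 6.42 to 13.2 CPM in MCA-948 against 4.405 to 5.90 CPM. The 6 adipocyte markers overlapped (1.90 to 16.9 and 4.56 to 15.3 CPM, with Lep at 0 in all 12 tumors). The 6 pericyte markers did not overlap, at 121 to 222 CPM in MCA-948 against 39.5 to 68.9 CPM, with 4 of 6 (Rgs5, Higd1b, Abcc9 and the proteoglycan gene Cspg4, with a log2 fold change of 2.11) called higher there (2 to 4 of 6 with any 1 tumor left out, 1 of 6 with either run term). The 11 NK cell and ILC1 markers summed to 4.81 to 16.02 CPM in the 4 MCA-948 tumors with the letter W, 2.82 to 3.23 CPM in the 4 with the letter a and 0.819 to 3.21 CPM in MCA-972, and 2 of 11, the transcription factors Tbx21 and Eomes, were called higher in MCA-948 (1 to 3 with any 1 tumor left out, 1 with the index term, none with the series term). Of the 7 B cell markers 5 were tested and 4 were called higher in MCA-972 (2 to 6 with any 1 tumor left out, none with either term), where the list summed to 1.26 to 13.7 CPM against 1.14 to 2.05 CPM in MCA-948. In bulk RNA, fewer cells of a type and less RNA per cell cannot be told apart.

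The 10 fibroblast lineage markers, which check the labelled tissue, summed to 11934 to 16996 CPM in MCA-948 and 31932 to 42597 CPM in MCA-972. Both lines thus carried the lineage at high level, and 8 of the 10 markers were called higher in MCA-972 (4 with the series term without W-1D). Skeletal muscle fibre markers (3.39 to 5.50 and 6.54 to 8.76 CPM) and keratinocyte markers (2.32 to 3.57 and 1.45 to 2.62 CPM, with Krt1 and Dsg3 at 0 in all 12 tumors) were near 0.

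A gene was called when its Benjamini-Hochberg adjusted p in edgeR's quasi-likelihood test was under 0.05 and its log2 fold change, MCA-948 minus MCA-972, was at least 1 in size. A negative log2 fold change is therefore a higher level in MCA-972. Of 16862 genes tested, 4513 (26.8%) were called, 1395 (8.27%) higher in MCA-948 and 3118 (18.5%) higher in MCA-972, around a median log2 fold change of 0.01. Levels did not overlap between the lines for 7638 genes (45.3%), of which 3503 (20.8%) were higher in MCA-948 and 4135 (24.5%) in MCA-972. With the library series as a term 2830 genes (16.8%) were called, 5.06% higher in MCA-948 and 11.7% higher in MCA-972, and with the index set 4158 (24.7%), 6.96% and 17.7%. Without MCA-969 W-1D the shares were 14.6% (6.04% and 8.58%) with the series term and 23.5% (6.88% and 16.6%) with the index term. Every count of members below is to be read against these shares. Of 170 called genes that are named here, 24 lost their call with the series term and 8 with the index term. With the series term without W-1D 49 lost it, not counting Wnt2, Pcdh10, Rspo3, Col9a2, Prg4 and Ntm, whose sign turned. A gene lost with the series or the index term is marked as such where it is described.

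MCA-972 tumors held more RNA of matrix, contractile and interferon-stimulated genes, and MCA-948 tumors more of the HoxB genes, of Met and of several glycolysis genes. Interferon-stimulated genes were called higher in MCA-972 for 36 of 45 members and matrix genes for 20 of 27, against 18.5% of all genes, but the series term without W-1D left 2 and 7. In MCA-948, all 9 tested genes from Hoxb9 to Hoxb2 and 12 of 33 genes of glycolysis and hypoxia were higher, against 8.27%, and with the index term the latter were 5 against 3 higher in MCA-972. Trp53, the gene of p53, was lower in MCA-948 by a log2 fold change of -5.44.

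In the sentences that follow, values for MCA-948 are the lowest, median and highest of 8 tumors and values for MCA-972 are the tumors a-1, a-1G, 2G and a-R in that order, all in CPM. Among protein-coding genes called, with at least 5 CPM in the higher line and no overlap, 633 genes stood higher in MCA-948. The 12 with the largest fold change were Dynap, Chrm4, Msln, Mtus2, Hoxc10, Krt18, Tbx20, Lin28b, Hoxb7, Kdm5d, Uty and Hoxb6. Dynap, a membrane protein on chromosome 18, led with 19.02, 31.7 and 46.1 CPM in MCA-948 and 0.0273, 0.122, 0.104 and 0.0278 CPM in MCA-972 (log2 fold change 8.67, SE 0.51, adjusted p = 2.30e-14). Chrm4, a muscarinic acetylcholine receptor on chromosome 2, followed with 5.99, 9.46 and 14.03 CPM in MCA-948 and 0.0273, 0.0245, 0.0521 and 0.0278 CPM in MCA-972 (log2 fold change 8.07, SE 0.52, adjusted p = 8.66e-14). Every MCA-948 tumor thus lay far above a line in which both transcripts were near the floor.

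Msln encodes mesothelin, a surface protein of mesothelial cells and several carcinomas, and read 6.19, 10.1 and 34.2 CPM in MCA-948 and 0.0546, 0.0734, 0.0782 and 0.0557 CPM in MCA-972 (log2 fold change 7.74, SE 0.73, adjusted p = 3.90e-10). Krt18, a keratin of simple epithelia, read 65.5, 84.1 and 138 CPM in MCA-948 and 0.682, 0.807, 0.443 and 0.612 CPM in MCA-972 (log2 fold change 7.16, SE 0.40, adjusted p = 7.64e-15). Tbx20, a T-box factor of heart development, read 31.0, 42.1 and 53.2 CPM in MCA-948 and 0.546, 0.0489, 0.104 and 0.501 CPM in MCA-972 (log2 fold change 7.11, SE 0.57, adjusted p = 5.06e-11), and in the other 3 lines its mean was at most 0.633 CPM. Lin28b, an RNA-binding protein that blocks let-7 microRNA processing and is best known from fetal tissue, read 12.8, 17.8 and 22.3 CPM in MCA-948 and 0.191, 0.147, 0.104 and 0.139 CPM in MCA-972 (log2 fold change 6.86, SE 0.29, adjusted p = 1.22e-17).

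On the side of MCA-972, 1330 genes met the same conditions, and the 12 with the largest fold change were Ndp, Fut9, B3gat1, Cnn1, Cdh19, Angptl7, Agtr2, Cdh10, Tnmd, Zic4, Grik2 and Kcnq5. Ndp encodes norrin, a secreted ligand of the receptor Fzd4, and read 29.2, 28.1, 29.4 and 29.0 CPM in MCA-972. All 8 MCA-948 libraries together held 1 count of Ndp, a ratio of 8622 to 1 with a 95% counting interval from 1547 to 340629. Fut9, a fucosyltransferase that builds the Lewis X sugar, read 5.98, 9.29, 8.21 and 5.12 CPM in MCA-972 and had no count in MCA-948, which makes it at least 86.6-fold higher in MCA-972 against a floor of 3 counts per library. B3gat1, a glucuronyltransferase that builds the CD57 (HNK-1) sugar, read 3.44, 5.36, 6.36 and 13.1 CPM and likewise had no count in MCA-948, so that it was at least 85.5-fold higher. Its call was lost with the series term (adjusted p = 1.00) and with the index term (adjusted p = 1.00).

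Cnn1, the smooth muscle actin-binding protein calponin 1, read 0.0338, 0.0960 and 0.131 CPM in MCA-948 and 153, 92.8, 173 and 113 CPM in MCA-972 (log2 fold change -10.57, SE 0.43, adjusted p = 1.22e-17). Angptl7, a secreted angiopoietin-like protein, read 0.0250, 0.144 and 0.688 CPM in MCA-948 and 179, 117, 185 and 217 CPM in MCA-972 (log2 fold change -9.54, SE 0.42, adjusted p = 5.54e-17). Agtr2, an angiotensin II receptor, read 0, 0.01003 and 0.182 CPM in MCA-948 and 22.3, 20.6, 20.4 and 44.9 CPM in MCA-972 (log2 fold change -9.39, SE 0.66, adjusted p = 8.99e-13), with MCA-972 a-R above the other tumors of its line. Tnmd, the tendon membrane protein tenomodulin, read 0, 0 and 0.0655 CPM in MCA-948 and 3.14, 10.9, 10.97 and 9.19 CPM in MCA-972 (log2 fold change -8.98, SE 1.13, adjusted p = 7.35e-08), and was no longer called with the series term (-5.05, adjusted p = 0.131). The cadherins Cdh19 and Cdh10, the glutamate receptor Grik2 and the potassium channel Kcnq5, all best known from neural tissue, each had at most 12 counts over the 8 MCA-948 libraries and means of 10.5 to 36.1 CPM in MCA-972, and the call of Cdh19 was lost with the series term. The plot of the leading genes by tumor shows the size of the gap, whose presence in every tumor was a condition of the choice.

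**Figure D1:**
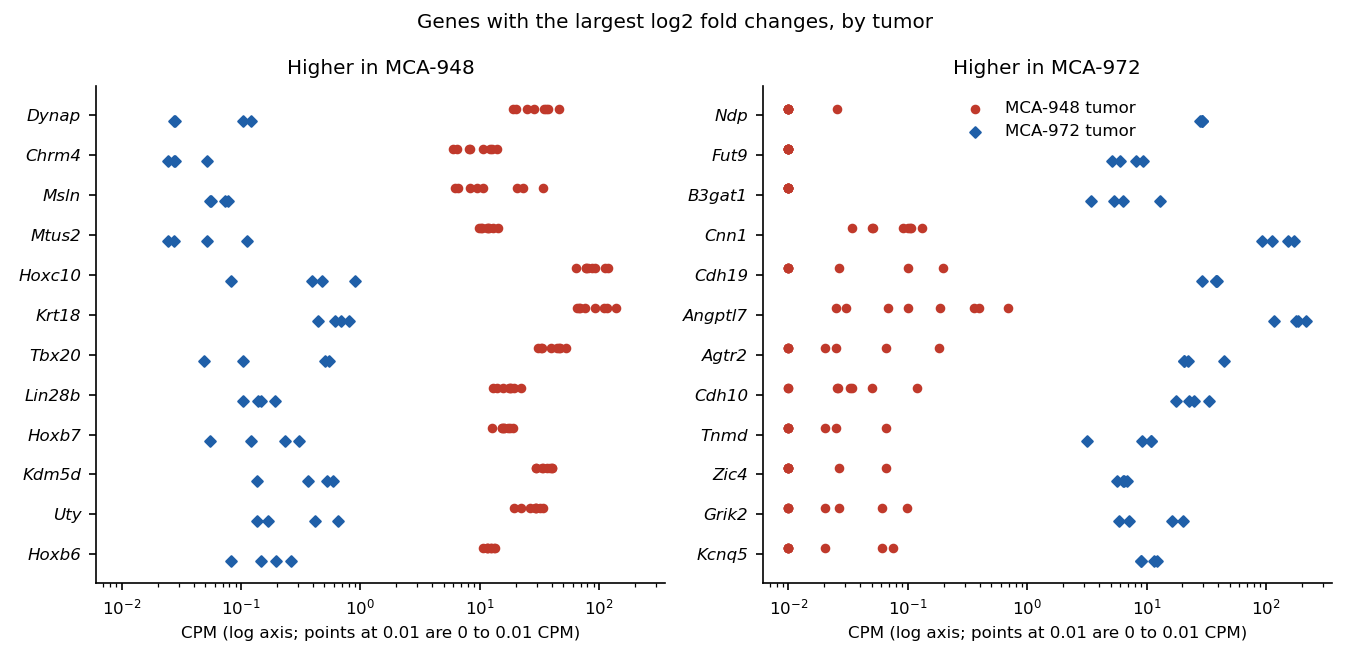
TMM-scaled CPM on a log axis of the 12 genes with the largest fold change in each direction, one point per tumor (8 MCA-948, 4 MCA-972), with points at 0.01 standing for 0 to 0.01 CPM. No tumor of the lower line reaches a tumor of the higher line for any of the 24 genes, because the genes were chosen by that condition. Of these, 2 genes, Fut9 and B3gat1, had no count in MCA-948.

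Called genes lay side by side at several places of the genome, of which 2, a run on chromosome 6 and a stretch of chromosome 4, were chosen for description after their values were seen. On chromosome 6, all 16 tested genes with starts from Tfec to Gm43844 (GRCm38, chr6:16833373-17943025, 1110 kb) were called higher in MCA-948, with log2 fold changes of 2.74 to 6.62 (median 4.67). Among them Met, the receptor tyrosine kinase for hepatocyte growth factor, read 2961, 4426 and 4876 CPM in MCA-948 and 141, 139, 135 and 144 CPM in MCA-972 (log2 fold change 4.89, SE 0.65, adjusted p = 1.94e-07). Tes, a focal adhesion protein, read 4060.5, 5687 and 6635 CPM in MCA-948 and 171, 187, 196 and 170.2 CPM in MCA-972 (log2 fold change 4.92, SE 0.17, adjusted p = 1.57e-19). Cav1, the main protein of caveolae, read 8616, 12146 and 15656 CPM in MCA-948 and 1326, 871, 921 and 989 CPM in MCA-972 (log2 fold change 3.55, SE 0.21, adjusted p = 9.76e-15). Every MCA-948 tumor thus held more of these transcripts than any MCA-972 tumor by over an order of magnitude for Met and Tes.

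Cav2, the partner of Cav1, read 796, 1174 and 1949 CPM in MCA-948 and 51.1, 51.8, 54.5 and 48.9 CPM in MCA-972 (log2 fold change 4.65, SE 0.23, adjusted p = 4.55e-16). Capza2, an actin capping subunit, read 4591, 6676 and 9829.6 CPM in MCA-948 and 184, 180.3, 177 and 178 CPM in MCA-972 (log2 fold change 5.25, SE 0.19, adjusted p = 4.46e-19), and the neighbouring gene St7 had a log2 fold change of 4.41 (SE 0.15, adjusted p = 1.65e-19). Outside the run the direction did not hold. Mdfic, the nearest protein-coding gene before it, was lower in MCA-948 by 0.56 on the log2 scale and not called. Beyond its end, Wnt2 had a log2 fold change of -1.11 (adjusted p = 0.0341, a call lost with the replicate block, in limma-voom, with either run term and in several other settings) and Lsm8 had 0.04 (adjusted p = 0.782). On the outer flanks, Foxp2 and Cttnbp2 were called higher in MCA-972, with -3.90 and -4.98. The 3 other lines read near MCA-972 here, with mean levels of 92.6 to 302 CPM for Tes, 34.9 to 58.7 CPM for Cav2 and 239 to 288 CPM for Capza2. The difference for Met was 2.28 with the series term (adjusted p = 0.0191) and 3.35 with the index term, and 5.82 and 5.12 with W-1D left out. Met's ligand Hgf, a gene of chromosome 5 named after its values were seen, went the other way, with 16.4, 28.8 and 40.4 CPM in MCA-948 and 154, 123, 112 and 130.0 CPM in MCA-972 (log2 fold change -2.22, SE 0.27, adjusted p = 3.18e-08).

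On chromosome 4, 25 of 26 tested genes from Mysm1 to Alg6 (GRCm38, chr4:94942040-99763460, 4821 kb) were called higher in MCA-972, the exception being Gm12696. Among 10496 protein-coding genes of at least 5 CPM, the 13 consecutive members of this stretch were the longest run of calls in 1 direction, ahead of 1 run of 7, 3 runs of 6 (Tes to St7 on chromosome 6 among them) and 8 runs of 5. Jun, a subunit of the AP-1 transcription factor, read 1048, 1209 and 1909 CPM in MCA-948 and 8322, 7536, 7724 and 13704 CPM in MCA-972 (log2 fold change -2.84, SE 0.15, adjusted p = 5.17e-16). Usp1, a deubiquitinase of the Fanconi anemia pathway, read 116, 159.7 and 183 CPM in MCA-948 and 835, 554, 486 and 828 CPM in MCA-972 (log2 fold change -2.13, SE 0.14, adjusted p = 7.56e-14). Mysm1, a histone H2A deubiquitinase, read 16.9, 30.4 and 33.6 CPM in MCA-948 and 269, 209, 344 and 268 CPM in MCA-972 (log2 fold change -3.29, SE 0.14, adjusted p = 2.31e-17).

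Larger differences in the stretch belonged to genes with low levels in MCA-948. Nfia, a transcription factor of glial and fat cell development, read 1.90, 3.65 and 7.55 CPM in MCA-948 and 267, 179.7, 341 and 299.5 CPM in MCA-972 (log2 fold change -6.07, SE 0.37, adjusted p = 5.18e-14), and Patj, a scaffold of tight junctions, read 0, 0.159 and 0.558 CPM in MCA-948 and 28.3, 20.8, 15.8 and 30.8 CPM in MCA-972 (log2 fold change -6.98, SE 0.40, adjusted p = 8.04e-15). Tm2d1, Hook1, Atg4c (a protease of autophagy) and Alg6 (a glucosyltransferase of protein glycosylation) had log2 fold changes of -2.30, -3.30, -2.40 and -2.13. The flanks held called genes as well. Eqtn, just before Mysm1, had -3.10, at a mean of 1.10 CPM in MCA-972, while Ift74, farther out, had 0.35 and was not called. Past the other end, Itgb3bp had -0.06 and was not called, whereas Ror1 (-1.98) and Raver2 (-5.36) were called higher in MCA-972. The other 3 lines lay near MCA-948, with means of 25.4 to 33.9 CPM for Mysm1 and 1628 to 2538 CPM for Jun. The overlapping antisense gene Junos cannot be told apart from Jun because the strand setting of the counting is not given. DNA copy number was not measured, and its part in either run was not tested.

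**Figure D2:**
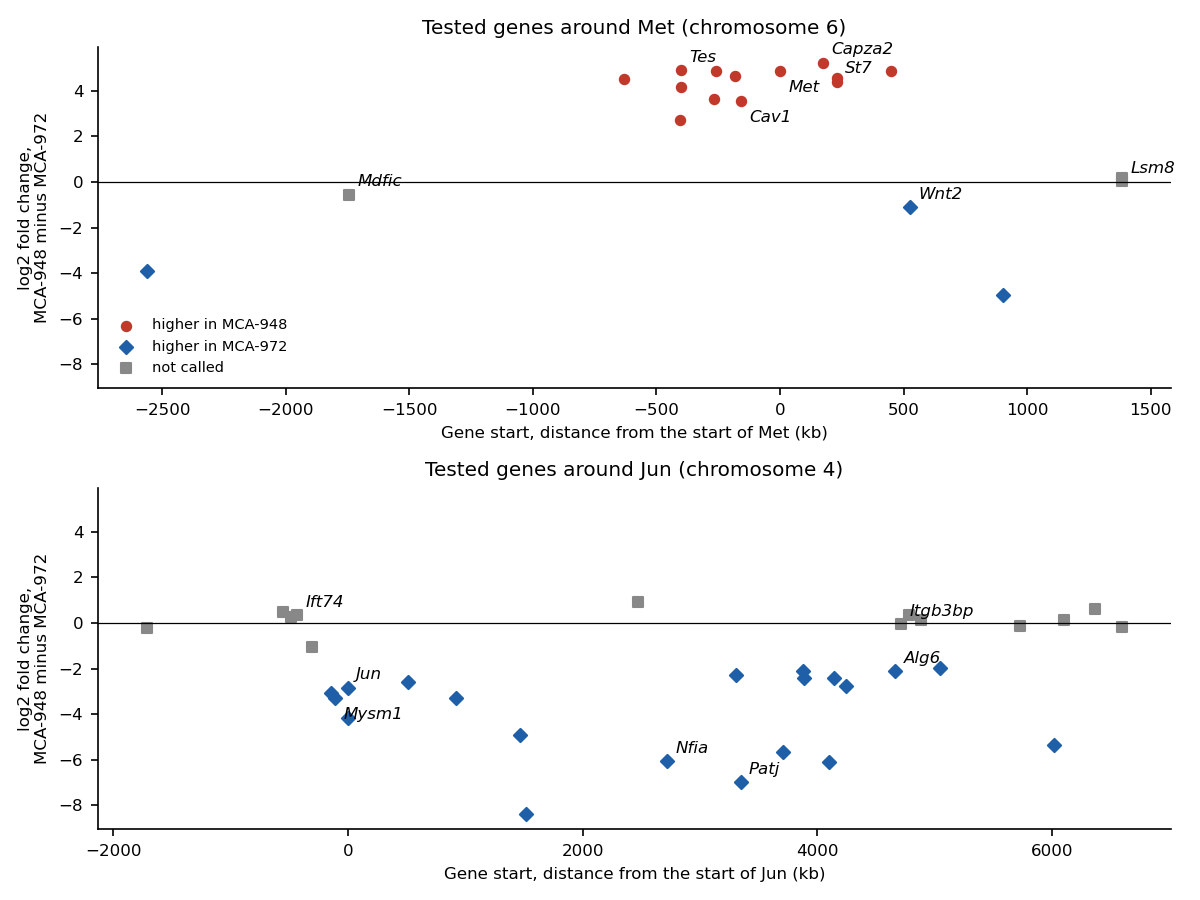
Log2 fold change (MCA-948 minus MCA-972) of tested genes with at least 1 CPM in the higher line and more than 3 counts in both lines, against distance in kb from the start of Met on chromosome 6 and of Jun on chromosome 4. The plotted genes from Tfec to Gm43844 sit between 2.74 and 5.25 with flanks below that range, and the called genes from Mysm1 to Alg6 sit at -2.13 or below, with further called genes on both flanks.

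Several genes of cell growth outside the runs differed as well. Myc, an oncogenic transcription factor on chromosome 15 named after its values were seen, read 505, 689.5 and 1625 CPM in MCA-948 and 133, 133, 102 and 299 CPM in MCA-972 (log2 fold change 2.29, SE 0.40, adjusted p = 1.37e-05), so that the groups did not overlap, and its call was lost with the index term without W-1D (1.06, adjusted p = 0.0904). The sex chromosome genes also separated the lines. Kdm5d, a histone demethylase gene of the Y chromosome, read 29.8, 35.3 and 40.5 CPM in MCA-948 and 0.136, 0.587, 0.365 and 0.529 CPM in MCA-972. Uty, a Y-linked relative of another histone demethylase, read 19.4, 29.3 and 34.1 CPM in MCA-948 and 0.136, 0.416, 0.652 and 0.167 CPM in MCA-972. Xist, the RNA that silences 1 X chromosome in female cells, read 0.0253, 0.0702 and 0.245 CPM in MCA-948 and 464, 531, 513 and 416 CPM in MCA-972 (log2 fold change -12.48, SE 0.30, adjusted p = 5.66e-23). MCA-948 tumors thus held RNA of these 2 Y-linked genes and almost no Xist, MCA-972 tumors held Xist and almost no RNA of Kdm5d and Uty. Of 8 tested genes of the Y chromosome, 7 were called higher in MCA-948 and 1 higher in MCA-972, against 8.27% and 18.5% of all genes. The share of host cells in either signal was not tested.

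The p53, Ink4 and Rb list had 29 of 30 members tested, of which 3 (Bax, Bbc3, Pmaip1) were called higher in MCA-948 and 4 (Trp53, Perp, Phlda3, Sesn1) higher in MCA-972, with a median log2 fold change of -0.05 (5 and 6 higher in MCA-948 with the series and the index term, 1 with the series term without W-1D). Calls made up 24.1% of the list, 13.8% higher in MCA-972, against 26.8% and 18.5% of all genes, so the counts do not set the list apart. Trp53, the gene of the tumor suppressor p53, read 0.710, 1.36 and 4.32 CPM in MCA-948 and 103, 93.8, 89.0 and 88.7 CPM in MCA-972 (log2 fold change -5.44, SE 0.29, adjusted p = 3.11e-15), the largest change in the list. All 8 MCA-948 tumors thus lay far below MCA-972, and the 4 MCA-972 tumors lay close together. Bax, Bbc3 (PUMA) and Pmaip1 (NOXA), genes of mitochondrial cell death that p53 can switch on, had log2 fold changes of 1.19, 1.69 and 2.00, higher in the line with little Trp53 RNA. Perp, Phlda3 and Sesn1, also known p53 targets, had -3.81, -1.70 and -1.16, higher in MCA-972, the last lost with the series term. Mdm2, which marks p53 for degradation, had 0.73 and did not pass the fold threshold. Cdkn1a, the cell cycle inhibitor p21, read 14.8, 20.8 and 36.7 CPM in MCA-948 and 32.5, 18, 11.9 and 30.9 CPM in MCA-972. Cdkn2a, which encodes p16 and p19Arf, read 349, 411 and 646 CPM in MCA-948 and 476, 529, 415 and 418 CPM in MCA-972. For both the lines overlapped and the sign of the difference, -0.06 and -0.05, turned under several settings.

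The few Trp53 counts in MCA-948 were compared with marker sums of other cells, a relation examined after the values were seen. Over the 8 MCA-948 tumors, Trp53 CPM followed the summed endothelial markers with Pearson r = 0.937 (exact permutation test, two-sided p = 9.92e-05, adjusted over 5 relations 0.000496) and Spearman rho = 0.976 (exact permutation adjusted p = 0.00198). Without the 2 tumors farthest from the median endothelial sum, r was 0.976. Of the other 4 marker lists, none had a Pearson adjusted p under 0.255. Within the 6 MCA-948 tumors of the third library series, endothelial r was 0.987 and rho 1.00 (exact permutation p = 0.00278 for each, the smallest that 6 tumors can give, adjusted over 5 relations 0.0139). In the same 6 tumors the erythroid sum ran the other way, with r = -0.74 (exact permutation p = 0.00833, adjusted 0.0208) and rho = -0.94 (exact permutation p = 0.0167, adjusted 0.0417). The second series held too few tumors for a value. The endothelial sum was 33.7 to 163 CPM in MCA-948 tumors with the letter W and 65.3 to 623 CPM in those with a. In the third series its highest values, 288 and 355 CPM, belonged to a-1G and a-2D. The part of the title letter in the relation was not tested.

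Matrix genes were higher in MCA-972. Of 27 fibrillar collagens and matrix genes, 20 were called higher in MCA-972, none higher in MCA-948, and all 27 had a negative log2 fold change (median -1.71). The summed level of the list was 18354 to 30637 CPM in MCA-948 and 65190 to 79939 CPM in MCA-972. Eln, the elastic fibre protein elastin, read 0.795, 2.71 and 5.05 CPM in MCA-948 and 64.3, 65.4, 81.7 and 185 CPM in MCA-972 (log2 fold change -5.22, SE 0.50, adjusted p = 4.03e-10). Lox, an enzyme that cross-links collagen and elastin, read 26.7, 56.6 and 125 CPM in MCA-948 and 1316, 905, 996 and 1508 CPM in MCA-972 (log2 fold change -4.21, SE 0.41, adjusted p = 6.70e-10), and the related Loxl3 had -3.93. Tnc, the matrix glycoprotein tenascin C, read 268, 507 and 1261 CPM in MCA-948 and 5074, 5497, 6499 and 5176 CPM in MCA-972 (log2 fold change -3.16, SE 0.30, adjusted p = 4.08e-10). Both chains of type I collagen belonged to the group, with 1315, 2045 and 3540.1 CPM in MCA-948 and 7548, 5483, 5783 and 8447 CPM in MCA-972 for Col1a1 (log2 fold change -1.71, SE 0.26, adjusted p = 1.43e-06) and -2.44 for Col1a2. The count of 20 became 14 with the series term and 7 with the series term without W-1D.

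Of 19 tested fibroblast and stromal genes, 10 were called higher in MCA-972 and 1, S100a4, higher in MCA-948 (4 and none with the series term without W-1D). Lum, the collagen-binding proteoglycan lumican, read 6.94, 29.6 and 43.0 CPM in MCA-948 and 904, 713, 948.5 and 799 CPM in MCA-972 (log2 fold change -5.00, SE 0.44, adjusted p = 7.48e-11). Postn, the matrix protein periostin, read 477, 1035 and 1636 CPM in MCA-948 and 13551, 10906, 12441 and 22012 CPM in MCA-972 (log2 fold change -3.82, SE 0.35, adjusted p = 1.58e-10). Meox2, a homeobox factor of mesoderm, had -3.85 (adjusted p = 2.31e-07), lost with the series term. S100a4, a calcium-binding protein often used as a fibroblast marker, read 15.3, 24.5 and 43.7 CPM in MCA-948 and 14.96, 9.46, 8.94 and 10.9 CPM in MCA-972 (log2 fold change 1.27, SE 0.33, adjusted p = 0.00133), a call lost with either run term (0.79, adjusted p = 0.203 and 0.60, adjusted p = 0.285). The pericyte markers named above were higher in MCA-948, and their part in these values was not tested.

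Contractile genes of smooth muscle cells and myofibroblasts followed the same side. Of 18 tested, 11 were called higher in MCA-972 and 2 (Rgs5 and Ndufa4l2) higher in MCA-948, with a median of -1.43 (11 and 1 with the index term, 8 and 1 with the series term, 8 and 3 with the series term without W-1D). Acta2, smooth muscle actin, read 5.89, 17 and 31.1 CPM in MCA-948 and 714, 422, 782 and 492.7 CPM in MCA-972 (log2 fold change -5.19, SE 0.40, adjusted p = 6.35e-12). Tagln (transgelin), Myl9 (a myosin light chain) and Actg2 (enteric actin) had log2 fold changes of -5.61, -5.80 and -6.83, with means of 2.35 CPM for Myl9 and 0.303 CPM for Actg2 in MCA-948. Rgs5, a regulator of G protein signalling that marks pericytes, read 1.15, 7.81 and 52.2 CPM in MCA-948 and 1.28, 1.27, 1.43 and 3.48 CPM in MCA-972 (log2 fold change 3.20, SE 0.89, adjusted p = 0.00277), with overlap between the lines and a call lost with either run term. The 11 calls were 11 with any 1 tumor left out.

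Of 14 tested cartilage genes, 8 were called higher in MCA-972 and none higher in MCA-948 (3 and 1 with the series term, none with the series term without W-1D). The list summed to 131 to 239 CPM in MCA-948 and 581 to 745.5 CPM in MCA-972. Col11a1, a minor fibrillar collagen of cartilage, read 0.0253, 0.781 and 4.19 CPM in MCA-948 and 331, 318, 299 and 342 CPM in MCA-972 (log2 fold change -7.87, SE 0.68, adjusted p = 5.77e-11). Acan, the proteoglycan aggrecan, read 11.1, 15 and 37.1 CPM in MCA-948 and 148, 86.2, 160.4 and 109 CPM in MCA-972 (log2 fold change -2.83, SE 0.55, adjusted p = 7.26e-05), a call lost with either run term. Col10a1, the collagen of hypertrophic cartilage, had 2 counts in all MCA-948 libraries against 0.764, 0.489, 1.15 and 0.919 CPM in MCA-972, a ratio of 123 with a counting interval from 33.3 to 1025. Prg4, the joint lubricant lubricin, had -3.49 and Col9a2 had -5.83, from 4 counts in MCA-948, both lost with the series term. Among 11 tested bone genes, 5 were higher in MCA-972 and 2 higher in MCA-948 (2 and 1 with the series term, 5 and 1 with the index term), Alpl (-3.19), the phosphatase of mineralising cells, among the former. Spp1 (osteopontin) read 183, 321 and 427 CPM in MCA-948 and 2824, 3121, 2199 and 2434 CPM in MCA-972 (log2 fold change -3.06, SE 0.24, adjusted p = 9.90e-12), whereas Phex, an endopeptidase of bone and teeth, read 29.2, 35.7 and 45.0 CPM in MCA-948 and 10.1, 7.29, 7.43 and 6.51 CPM in MCA-972 (log2 fold change 2.23, SE 0.16, adjusted p = 8.64e-13). Of 14 tested skeletal muscle genes 2 were called in each direction (4 higher in MCA-972 with the index term, 1 higher in MCA-948 with the series term without W-1D), and Ttn, the giant muscle protein titin, had 5.33, higher in MCA-948. Calls made up 28.6% of the muscle list, near the 26.8% of all genes.

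Of 28 matrix proteases and inhibitors, 13 were called higher in MCA-972 and none higher in MCA-948 (8 with the series term, 6 and 1 with the series term without W-1D). Mmp3, the protease stromelysin 1, read 14.3, 21.03 and 78.5 CPM in MCA-948 and 206, 179.8, 139 and 473 CPM in MCA-972 (log2 fold change -3.10, SE 0.44, adjusted p = 5.38e-07). Adamts2, which trims procollagen, read 1.87, 4.90 and 28.0 CPM in MCA-948 and 199, 144, 241 and 209.8 CPM in MCA-972 (log2 fold change -4.50, SE 0.49, adjusted p = 4.57e-09), and Adamts5, an aggrecanase, and Mmp23 had -3.24 and -3.63. Basement membrane genes, laminins and integrins divided, with 7 of 35 higher in MCA-948 and 9 of 35 higher in MCA-972 (5 for MCA-972 with the series term without W-1D). Itga11, a collagen-binding integrin chain of fibroblasts, read 0.0917, 0.527 and 1.55 CPM in MCA-948 and 93.6, 86.0, 103 and 171 CPM in MCA-972 (log2 fold change -7.25, SE 0.67, adjusted p = 2.17e-10), and Itga8 and Lama2 had -5.19 and -2.82. Itga6, a chain of laminin receptors, read 89.0, 124 and 152 CPM in MCA-948 and 11.1, 11.1, 10.9 and 14.7 CPM in MCA-972 (log2 fold change 3.34, SE 0.17, adjusted p = 4.19e-16), and Itgb7, a chain best known from lymphocytes, had 4.14, both higher in MCA-948.

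Cell adhesion molecules followed the matrix in number. Of 12 tested classical and related cadherins, 8 were higher in MCA-972 and 1 higher in MCA-948 (4 and 1 with the series term, 2 and 1 with the series term without W-1D). Cdh11, the cadherin of mesenchymal cells, read 1.95, 6.93 and 17.6 CPM in MCA-948 and 137, 167, 147 and 236 CPM in MCA-972 (log2 fold change -4.35, SE 0.40, adjusted p = 1.62e-10). Cdh13, a cadherin held in the membrane by a lipid anchor, read 40.8, 56.3 and 108 CPM in MCA-948 and 4.86, 5.92, 6.65 and 10.8 CPM in MCA-972 (log2 fold change 3.12, SE 0.31, adjusted p = 8.21e-10) and was the 1 member higher in MCA-948, while Cdh6 had -5.35 at no more than 1.89 CPM. Of 12 protocadherins outside the clusters, 5 were higher in MCA-972 (2 with the series term, 1 in each direction with the series term without W-1D). Pcdh10 had -6.33 and Pcdh19 had -3.08, while Pcdh11x had no count in MCA-948 and was at least 12.1-fold higher in MCA-972, a call lost with the series term. The sign for Pcdh10 turned with the series term without W-1D.

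Epithelial genes had more calls in MCA-948. Of 15 tested simple keratins, epithelial and mesothelial genes, 7 were higher in MCA-948 and 4 higher in MCA-972, with a median of 1.49 (6 and 1 with the series term without W-1D). Krt8, which pairs with Krt18 in filaments, read 0.372, 2.94 and 9.49 CPM in MCA-948 and 0.109, 0.196, 0.0521 and 0.334 CPM in MCA-972 (log2 fold change 4.33, SE 0.76, adjusted p = 1.61e-05), with MCA-948 W-2D above the other 7 tumors. Krt19 had 3.23, with overlap and with a call lost under the index term. Of 12 tested factors of epithelial-mesenchymal transition, 3 were higher in MCA-972, led by Foxc2 (-1.99), and 1, Foxf2, was higher in MCA-948 (2.31, lost with either run term). The counts were 1 and 1 with the series term, 1 and 2 with the series term without W-1D and 3 and 2 with the index term. Calls made up 33.3% of this list, 25.0% higher in MCA-972, near the 26.8% and 18.5% of all genes.

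Hox genes record the position along the body axis at which a mesenchymal cell arose. Of 39 members 30 passed the filter on low counts, and 14 were called higher in MCA-948 and 5 higher in MCA-972, against backgrounds of 8.27% and 18.5% of all genes. Called HoxB and HoxD genes were all higher in MCA-948 and called HoxA genes all higher in MCA-972, while HoxC held both (Hoxc10 and Hoxc11 higher in MCA-948, Hoxc8 higher in MCA-972). On chromosome 11, the 9 tested genes from Hoxb9 to Hoxb2 (GRCm38, chr11:96271457-96354691) were all called higher in MCA-948, with log2 fold changes of 1.504 to 6.474. Hoxb7 read 12.7, 15.9 and 18.9 CPM in MCA-948 and 0.0546, 0.122, 0.235 and 0.306 CPM in MCA-972 (log2 fold change 6.47, SE 0.25, adjusted p = 2.41e-18), Hoxb6 read 10.7, 12.1 and 13.3 CPM in MCA-948 and 0.0819, 0.147, 0.261 and 0.195 CPM in MCA-972 (log2 fold change 6.11, SE 0.28, adjusted p = 4.57e-17) and Hoxb8 had 4.75. On chromosome 15, Hoxc10 read 64.4, 83.3 and 119.9 CPM in MCA-948 and 0.0819, 0.905, 0.391 and 0.473 CPM in MCA-972 (log2 fold change 7.55, SE 0.61, adjusted p = 1.68e-11), although its annotated span overlaps Hoxc5 on the same strand.

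On chromosome 6 the order was turned. The 12 tested genes from Skap2 to Hoxa4 (GRCm38, chr6:51857422-52215076) were all called higher in MCA-972. Hoxa3 read 0, 0.126 and 0.399 CPM in MCA-948 and 2.02, 2.35, 4.14 and 1.95 CPM in MCA-972 (log2 fold change -4.03, SE 0.39, adjusted p = 4.02e-10) and Hoxa4 had -3.85, and the annotated spans of both overlap. These 2 genes were below 5 CPM in every tumor, so their difference was one between low levels. Calls of Hox genes were 14 and 4 to 5 with any 1 tumor left out and 14 and 3 with the series term without W-1D.

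**Figure D3:**
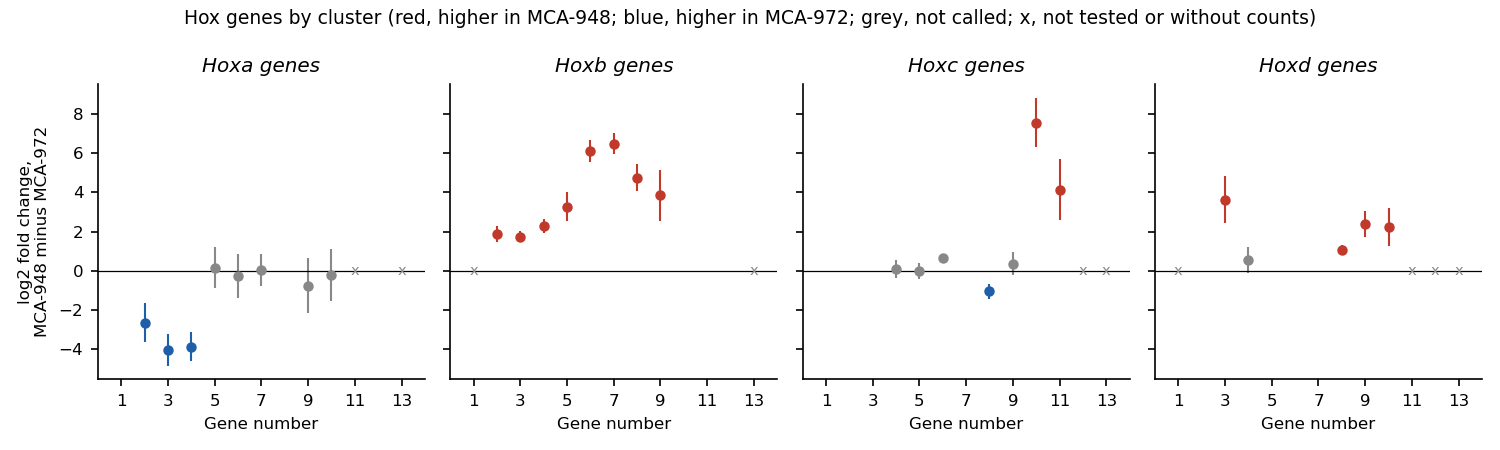
Log2 fold change (MCA-948 minus MCA-972) with 95% confidence interval for tested Hox genes, ordered by gene number within the clusters Hoxa to Hoxd. The plotted HoxB genes lie between 1.74 (Hoxb3) and 6.47 (Hoxb7), while Hoxa3 and Hoxa4 lie below -3, and genes not tested or without counts are marked with a cross.

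Of 27 tested limb and trunk positional factors, 11 were higher in MCA-972 and 4 higher in MCA-948 (7 and 6 with the series term, 2 and 6 with the series term without W-1D). Zic1, a zinc finger factor of dorsal mesoderm and neural tube, read 0, 0.0251 and 0.502 CPM in MCA-948 and 68.5, 70.4, 69.1 and 65.4 CPM in MCA-972 (log2 fold change -8.61, SE 0.40, adjusted p = 1.35e-16), and its neighbour Zic4 had 3 counts in MCA-948 against 961 in MCA-972, a ratio of 629 with an interval from 215 to 3057. The calls were lost in some settings, that of Zic1 with the series term (-7.06, adjusted p = 0.0555) and that of Zic4 with the index term without W-1D (adjusted p = 0.959). Zic1 and Zic4 overlap on opposite strands. Alx4 had 3 counts in MCA-948, a ratio of 252 with an interval from 85.6 to 1228, and Msx2 had -6.55. Irx2 and Tbx1 were higher in MCA-948, by 2.13 and 2.18 on the log2 scale.

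Genes that interferons switch on had the largest share of calls among the gene lists other than cell type markers. Of 45 tested interferon-stimulated genes, 36 were called higher in MCA-972 and none higher in MCA-948, with a median log2 fold change of -2.23. Isg15, a ubiquitin-like antiviral protein, read 0.778, 2.67 and 4.99 CPM in MCA-948 and 18.4, 24.4, 18.6 and 23.4 CPM in MCA-972 (log2 fold change -2.97, SE 0.34, adjusted p = 1.33e-08). Ifit1, which binds foreign RNA, read 0.744, 2.26 and 11.6 CPM in MCA-948 and 23.2, 34.7, 30.5 and 34.6 CPM in MCA-972 (log2 fold change -3.10, SE 0.44, adjusted p = 6.36e-07), with MCA-948 W-1D highest in its line. Igtp, a GTPase that interferon gamma induces, read 0.304, 1.25 and 3.37 CPM in MCA-948 and 6.69, 9.93, 11.7 and 11.03 CPM in MCA-972 (log2 fold change -2.82, SE 0.42, adjusted p = 1.18e-06), and Cxcl10, a chemokine for T and NK cells, read 18.9, 49.4 and 75.6 CPM in MCA-948 and 170.0, 218, 169 and 299 CPM in MCA-972 (log2 fold change -2.18, SE 0.30, adjusted p = 4.39e-07). Oas1a and Oas1b had -3.72 and -4.27, values that are uncertain because the Oas1 genes are near copies of each other. Iigp1, another interferon gamma GTPase, had -4.26.

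MCA-948 had the lowest sum of the 5 lines, and MCA-972 lay within the range of MCA-969. Summed over the list, MCA-948 held 387 to 669.8 CPM, MCA-972 1032 to 1389.5 CPM, MCA-969 849 to 1638 CPM, MCA-943 3352 to 8392 CPM and MCA-970, a further line labelled sensitive, 1438 to 2388 CPM. The count of 36 was 35 to 37 with any 1 tumor left out, 29 with the index term, 18 with the series term and 2 with the series term without W-1D. Type I and II interferon genes themselves were not in the list.

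The promoters of 4 called interferon-stimulated genes are shown for a sequence element, GAAANNGAAA (TTTCNNTTTC on the other strand), the core of sites known to bind interferon regulatory factors and ISGF3. They are the 250 bases before the RefSeq start, 5′ to 3′ on the strand of the gene, with the element in capitals, and were chosen after their values were seen. Isg15 is at chr4:156200819-156201068 (minus strand), Ifit1 at chr19:34640639-34640888 (plus), Igtp at chr11:58199306-58199555 (plus) and Cxcl10 at chr5:92348890-92349139 (minus), all in GRCm38.p6.
Isg15: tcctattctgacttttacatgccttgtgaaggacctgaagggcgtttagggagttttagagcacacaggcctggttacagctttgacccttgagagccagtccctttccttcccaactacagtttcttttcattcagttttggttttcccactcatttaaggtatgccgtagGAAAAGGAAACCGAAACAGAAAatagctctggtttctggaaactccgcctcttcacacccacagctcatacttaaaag
Ifit1: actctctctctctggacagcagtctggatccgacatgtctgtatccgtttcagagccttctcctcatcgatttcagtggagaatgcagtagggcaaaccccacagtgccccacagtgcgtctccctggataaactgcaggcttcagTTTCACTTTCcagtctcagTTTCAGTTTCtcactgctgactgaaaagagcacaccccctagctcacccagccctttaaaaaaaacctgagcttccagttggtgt
Igtp: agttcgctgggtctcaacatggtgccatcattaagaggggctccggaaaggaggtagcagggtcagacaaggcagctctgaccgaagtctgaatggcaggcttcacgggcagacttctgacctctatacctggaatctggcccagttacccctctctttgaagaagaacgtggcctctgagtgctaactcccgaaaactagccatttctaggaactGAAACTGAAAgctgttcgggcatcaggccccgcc
Cxcl10: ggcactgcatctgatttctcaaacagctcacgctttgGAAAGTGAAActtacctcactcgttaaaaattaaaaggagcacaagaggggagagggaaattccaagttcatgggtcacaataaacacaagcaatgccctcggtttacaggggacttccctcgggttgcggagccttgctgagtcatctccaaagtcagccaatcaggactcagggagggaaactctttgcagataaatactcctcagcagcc
In Isg15, 3 overlapping elements begin 78, 72 and 66 bases before the start, in Ifit1 elements begin 104 and 85 bases before it, in Igtp 1 begins 34 bases before it and in Cxcl10 1 begins 213 bases before it. Of 42 promoters found for 35 of the 45 genes, 18 (42.9%) held the element on either strand, against 978 of 32851 promoters of all genes (2.98%). The list was made of known interferon-stimulated genes, so this share does not describe the difference between the lines. Among the 26 called genes with a promoter 17 held it, the genes shown all among these 17, and among the 9 not called 1 held it. A match of letters is a description and does not show that a factor was bound.

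MHC class I genes, many of which interferon also raises, lay on the same side but with smaller values. Of 25 tested genes of MHC class I and peptide loading, 12 were called higher in MCA-972 and 2 higher in MCA-948 (12 and 1 with the series term, 14 and none with the series term without W-1D). The list summed to 2401 to 2925 CPM in MCA-948 and 3462 to 3957 CPM in MCA-972. Nlrc5, the activator of MHC class I transcription, read 0.203, 0.433 and 0.973 CPM in MCA-948 and 7.62, 13.8, 10.6 and 9.02 CPM in MCA-972 (log2 fold change -4.39, SE 0.25, adjusted p = 5.00e-15). Tap1, a peptide transporter that overlaps Psmb9, read 0.406, 1.20 and 2.52 CPM in MCA-948 and 7.78, 14.01, 12.98 and 14.3 CPM in MCA-972 (log2 fold change -3.15, SE 0.34, adjusted p = 6.03e-09). The classical molecules followed, with 13.9, 21.5 and 33.1 CPM in MCA-948 and 51.5, 117, 81.5 and 87.7 CPM in MCA-972 for H2-K1 (log2 fold change -1.94, SE 0.19, adjusted p = 5.03e-10) and 61.0, 66.9 and 80.9 CPM in MCA-948 and 94.6, 180.3, 136 and 155 CPM in MCA-972 for H2-D1 (log2 fold change -1.07, SE 0.15, adjusted p = 3.65e-07). Without MCA-972 a-1G the H2-D1 difference was -0.90 and no longer called.

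In H2-K1 and H2-D1 both lines were low against the other 3, in which mean H2-K1 was 328 to 2091 CPM and mean H2-D1 433 to 2526 CPM. For the summed list, MCA-972 (3462 to 3957 CPM) lay within the range of MCA-969 (3330 to 5230 CPM). H2-Q6 and H2-Q7 had -3.85 and -4.01, values that are uncertain because these genes are near copies. H2-T23, which encodes Qa-1, the ligand of the inhibitory receptor NKG2A, ran against the list with 9.17, 12.6 and 17.6 CPM in MCA-948 and 3.03, 5.16, 5.08 and 4.09 CPM in MCA-972 (log2 fold change 1.55, SE 0.24, adjusted p = 1.94e-06). Myeloid and pan-leukocyte markers overlapped between the lines, as given above, and their part in these values was not tested.

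Of 17 tested ligands of NK cell receptors, 2 were higher in MCA-948 and 4 (23.5%) higher in MCA-972. These counts were near the shares of all genes, 8.27% and 18.5%, and do not set the list apart. Nectin2, a ligand of DNAM-1, read 28.0, 34.6 and 41.1 CPM in MCA-948 and 1.39, 2.84, 2.01 and 2.92 CPM in MCA-972 (log2 fold change 3.92, SE 0.18, adjusted p = 3.52e-17), and MCA-972 was the lowest of the 5 lines, the other 3 having means of 20.9 to 34.1 CPM. Pvr, the other ligand of DNAM-1, read 63.8, 71.2 and 80.7 CPM in MCA-948 and 63.3, 54.6, 44.5 and 56.9 CPM in MCA-972 (log2 fold change 0.37, SE 0.14, adjusted p = 0.0197) and was not called. H2-T23, in this list too, was the other member higher in MCA-948.

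On the side of MCA-972 stood Pdgfd, a growth factor that also engages the NK receptor NKp44 in humans, with 0.406, 1.15 and 4.55 CPM in MCA-948 and 28.1, 25.4, 27.5 and 36.5 CPM in MCA-972 (log2 fold change -4.07, SE 0.36, adjusted p = 1.16e-10). Raet1d, an NKG2D ligand of the RAE-1 family whose members are near copies, read 0.0749, 0.1997 and 0.482 CPM in MCA-948 and 1.61, 2.40, 1.98 and 2.23 CPM in MCA-972 (log2 fold change -3.14, SE 0.44, adjusted p = 3.38e-07) and is uncertain for that reason. Nectin3, an adhesion molecule that pairs with other nectins, read 14.7, 17.4 and 21.4 CPM in MCA-948 and 76.5, 77.1, 79.5 and 78.9 CPM in MCA-972 (log2 fold change -2.11, SE 0.08, adjusted p = 2.41e-18) and Nectin1, a ligand of CD96 whose call was lost with the series term (-0.85, adjusted p = 0.0102), had -1.15.

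Of 22 tested checkpoint ligands and enzymes of adenosine and related pathways, 9 were higher in MCA-972 and 3 higher in MCA-948 (3 for MCA-972 with the series term without W-1D, 1 for MCA-948 with the index term). Nt5e (CD73), which makes adenosine, read 16.5, 36.1 and 44.8 CPM in MCA-948 and 386, 259, 289 and 299 CPM in MCA-972 (log2 fold change -3.19, SE 0.27, adjusted p = 3.42e-11). Ptgs2, the prostaglandin synthase COX-2, read 52.5, 89.1 and 144 CPM in MCA-948 and 624, 407, 261 and 672 CPM in MCA-972 (log2 fold change -2.42, SE 0.39, adjusted p = 3.89e-06), a call lost with the series term (-2.07, adjusted p = 0.0551). Tnfrsf14 (HVEM), the ligand of BTLA and CD160, had -2.87 at levels of at most 1.23 CPM. Arg1 (arginase 1), an enzyme of myeloid cells, read 5.56, 10.8 and 20.5 CPM in MCA-948 and 0.846, 1.22, 1.04 and 0.473 CPM in MCA-972 (log2 fold change 3.72, SE 0.42, adjusted p = 9.92e-09), higher in MCA-948, while the sum of the 16 myeloid markers overlapped between the lines and 6 of them were called higher in MCA-948 with the index term.

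Of 21 tested chemokines, 10 were higher in MCA-972 and 2 higher in MCA-948 (6 and 2 with the series term). Cxcl12, the stromal ligand of CXCR4, read 3.30, 21.8 and 38.1 CPM in MCA-948 and 782, 603, 955 and 1012 CPM in MCA-972 (log2 fold change -5.31, SE 0.43, adjusted p = 1.66e-11). Cx3cl1 (fractalkine), which attracts cells with CX3CR1, NK cells among them, read 3.27, 3.94 and 6.96 CPM in MCA-948 and 37.5, 47.1, 47.9 and 33.8 CPM in MCA-972 (log2 fold change -3.17, SE 0.23, adjusted p = 1.45e-12). Cxcl9, an interferon gamma chemokine, had -2.64, and lost its call with the series term. Ccl28, a chemokine of mucosal epithelia, read 1.42, 2.29 and 6.12 CPM in MCA-948 and 0.109, 0.0734, 0.0782 and 0.0278 CPM in MCA-972 (log2 fold change 5.14, SE 0.45, adjusted p = 4.44e-11), higher in MCA-948.

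Of 45 tested cytokines and members of the TGF-beta family, 20 were higher in MCA-972 and 2 higher in MCA-948 (13 and 2 with the series term, 12 and 3 with the series term without W-1D). Ltbp2, a latent TGF-beta binding protein of the matrix, read 29.2, 45.1 and 77.8 CPM in MCA-948 and 676, 615, 815 and 599 CPM in MCA-972 (log2 fold change -3.79, SE 0.31, adjusted p = 2.20e-11), and Inha and Gdf6 had -5.45 and -4.19 at low level. The 2 members higher in MCA-948 were Bmp3, with 22.9, 25.7 and 42.2 CPM in MCA-948 and 0.928, 0.831, 0.547 and 1.34 CPM in MCA-972 (log2 fold change 4.94, SE 0.40, adjusted p = 1.45e-11), and Tgfb1, a cytokine known to restrain NK cells, with 56.6, 69.7 and 86.0 CPM in MCA-948 and 23.1, 23.2, 22.3 and 28.7 CPM in MCA-972 (log2 fold change 1.54, SE 0.14, adjusted p = 2.10e-10). In Tgfb1 MCA-972 was the lowest of the 5 lines, the other 3 having means of 47.0 to 86.9 CPM.

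Of 37 tested growth factor receptor kinases, 13 were higher in MCA-972 and 5, Met among them, higher in MCA-948 (2 to 5 with any 1 tumor left out, 2 with either run term). With the series term without W-1D the counts were 4 and 4. Epha5 had no count in MCA-948 and was at least 16.3-fold higher in MCA-972. Ephb6, an ephrin receptor without kinase activity, read 0, 0.0133 and 0.0982 CPM in MCA-948 and 3.71, 5.65, 6.70 and 8.94 CPM in MCA-972 (log2 fold change -7.54, SE 0.43, adjusted p = 4.66e-15), and Fgfr2, whose annotated span overlaps many genes, had -6.80. Among 41 tested Wnt genes, 20 were higher in MCA-972 and 8 higher in MCA-948 (12 and 10 with the series term, 7 and 11 with the series term without W-1D). Sfrp2, a secreted Wnt antagonist, read 2.38, 3.49 and 11.4 CPM in MCA-948 and 319, 183, 174 and 369.6 CPM in MCA-972 (log2 fold change -5.89, SE 0.51, adjusted p = 6.79e-11), and the R-spondins Rspo2 and Rspo3, which strengthen Wnt signalling, had -4.51 and -4.69. The sign for Rspo3 turned with the series term without W-1D. The ligand Wnt10a had 4.72, and Wnt6 had 3 counts in MCA-972, a ratio of 16.3 (interval 5.41 to 80.4) in favour of MCA-948.

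Of 38 tested angiogenic factors and thrombospondins, 17 were higher in MCA-972 and 6 higher in MCA-948 (11 and 5 with the series term without W-1D). Thbs4, a thrombospondin of tendon and muscle, read 1.19, 7.27 and 19.5 CPM in MCA-948 and 236, 155, 218 and 399.5 CPM in MCA-972 (log2 fold change -4.98, SE 0.57, adjusted p = 1.30e-08), and Sema3b, a secreted semaphorin, had -4.42. Areg, the EGF receptor ligand amphiregulin, read 12.6, 21.4 and 31.6 CPM in MCA-948 and 1.45, 1.74, 0.834 and 2.03 CPM in MCA-972 (log2 fold change 3.78, SE 0.50, adjusted p = 2.10e-07), and Sema3e had 2.26, both higher in MCA-948. None of 12 endothelial markers was called with all tumors, but 7 were with letter a tumors alone and 6 without the third library series, higher in MCA-948 in both cases.

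Imprinted and insulin-like growth genes formed a further divided list, with 7 of 32 higher in MCA-948 and 12 of 32 higher in MCA-972 (4 and 7 with the series term, 7 and 7 with the series term without W-1D). Igf2, the fetal growth factor, read 19.4, 34.2 and 96.8 CPM in MCA-948 and 434, 883, 589 and 766 CPM in MCA-972 (log2 fold change -3.98, SE 0.39, adjusted p = 8.27e-10). H19, the noncoding RNA next to Igf2, read 224, 443 and 603 CPM in MCA-948 and 2227, 4017, 3670.3 and 3329 CPM in MCA-972 (log2 fold change -2.90, SE 0.39, adjusted p = 2.14e-07), a call lost with the series term (-1.95, adjusted p = 0.0539). Dlk1, a Notch ligand of fetal stroma, read 1.95, 5.23 and 8.87 CPM in MCA-948 and 241, 241, 313 and 535 CPM in MCA-972 (log2 fold change -6.06, SE 0.38, adjusted p = 8.13e-14), and Plagl1 and Igfbp2 had -5.95 and -5.85. Lin28b, given above, Igf2bp1 (3.88, lost with the series term) and Ndn (3.63) were higher in MCA-948.

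Glycolysis and hypoxia genes had more calls in MCA-948. Of 33 genes, 12 were higher in MCA-948 and none higher in MCA-972 (5 and 3 with the index term, 9 to 12 with any 1 tumor left out). The summed level of the list overlapped between the lines, at 9176 to 19672 CPM in MCA-948 and 6667 to 10458 CPM in MCA-972. Slc2a3, the glucose transporter GLUT3, read 23.7, 52.7 and 108 CPM in MCA-948 and 14.2, 16.7, 8.89 and 10.1 CPM in MCA-972 (log2 fold change 2.21, SE 0.33, adjusted p = 1.51e-06), and Slc16a1, the lactate transporter MCT1, read 192, 232 and 261 CPM in MCA-948 and 68.6, 56.9, 47.3 and 53.8 CPM in MCA-972 (log2 fold change 2.02, SE 0.14, adjusted p = 1.99e-13). Ldha, the lactate dehydrogenase subunit of muscle, and Pfkp, a phosphofructokinase, had 1.51 and 1.73. Of 33 cell cycle genes 2, Mybl2 (1.45) and Cdc6 (1.04), were higher in MCA-948 and none higher in MCA-972, and both calls were lost with the series term. With the series term without W-1D none was higher in MCA-948 and 5 were higher in MCA-972. Without MCA-972 a-1 the Cdc6 difference was 0.92 and no longer called.

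MCA itself is a ligand of the aryl hydrocarbon receptor. Of 24 tested genes of this receptor and of NRF2, 11 were higher in MCA-972 and 1 higher in MCA-948 (7 and 1 with the series term, 6 and 2 with the series term without W-1D). The receptor gene Ahr was that member, with 14.4, 23.9 and 29.7 CPM in MCA-948 and 5.81, 9.81, 7.19 and 6.29 CPM in MCA-972 (log2 fold change 1.63, SE 0.25, adjusted p = 1.77e-06). Its target Cyp1b1, a cytochrome P450 that oxidises MCA, read 0.0917, 0.561 and 1.81 CPM in MCA-948 and 5.81, 6.75, 4.85 and 9.24 CPM in MCA-972 (log2 fold change -3.29, SE 0.46, adjusted p = 5.01e-07), and its repressor Ahrr had -3.11. Gsta4, a glutathione transferase, read 1.47, 2.15 and 4.82 CPM in MCA-948 and 57.0, 31.6, 50.1 and 56.0 CPM in MCA-972 (log2 fold change -4.22, SE 0.27, adjusted p = 9.26e-14), and Aldh3a1 had 2 counts in MCA-948, a ratio of 25.5 with an interval from 6.39 to 222.

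The share of members called per list is drawn beside the background share of all genes, and the levels of 10 genes across all 5 lines place both lines among the rest.

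**Figure D4:**
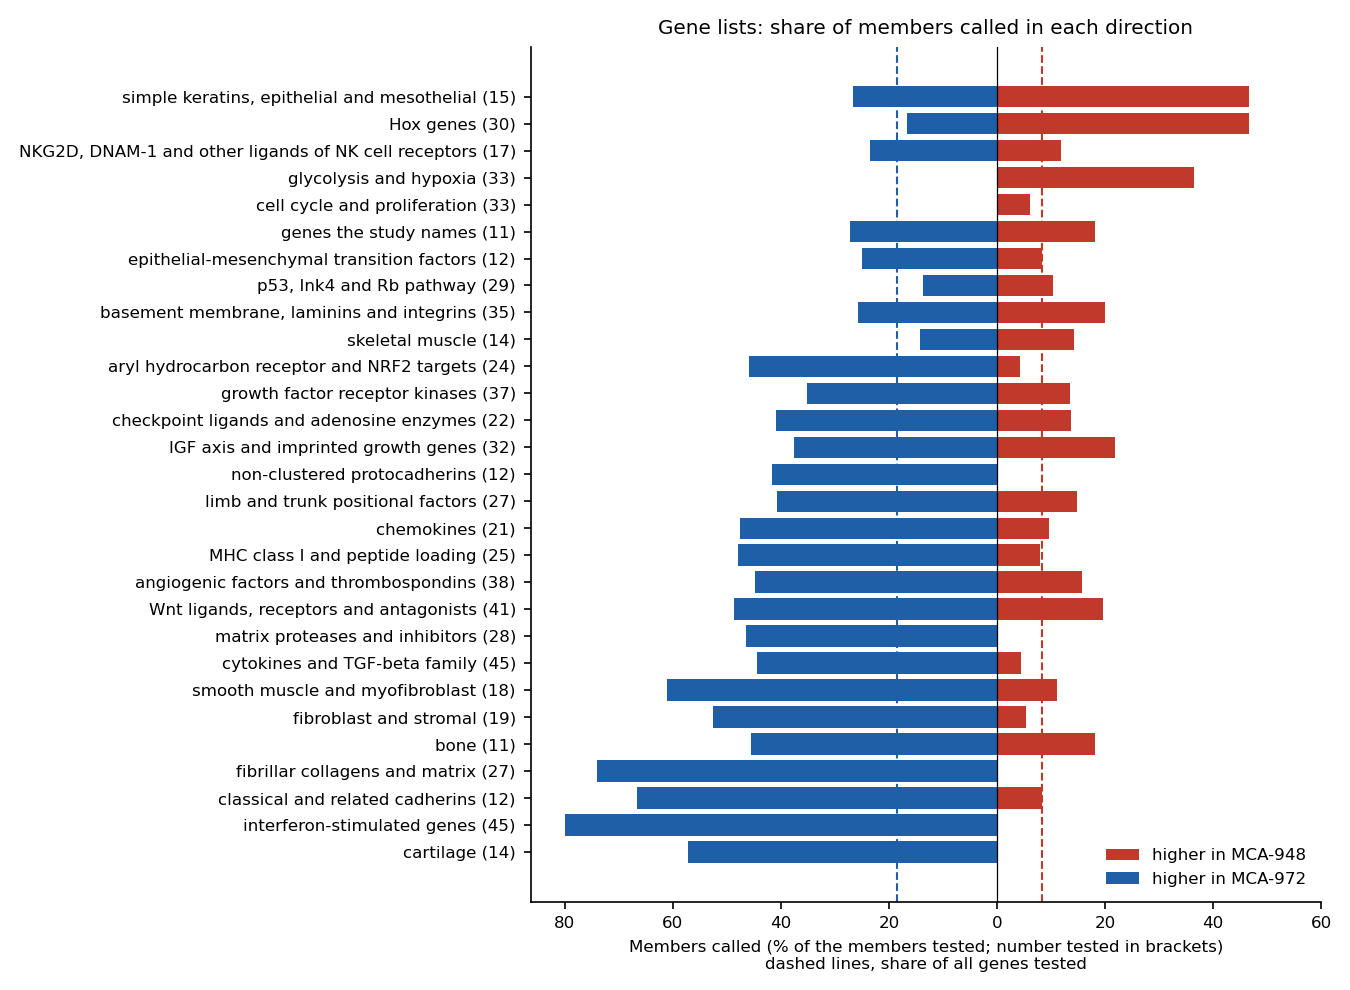
Percent of tested members of each list called higher in MCA-948 and higher in MCA-972, with dashed lines at the shares over all genes tested, 8.27% and 18.5%. Interferon-stimulated genes (36 of 45) and fibrillar collagens and matrix (20 of 27) reach furthest towards MCA-972, Hox genes and simple keratins furthest towards MCA-948.

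**Figure D5:**
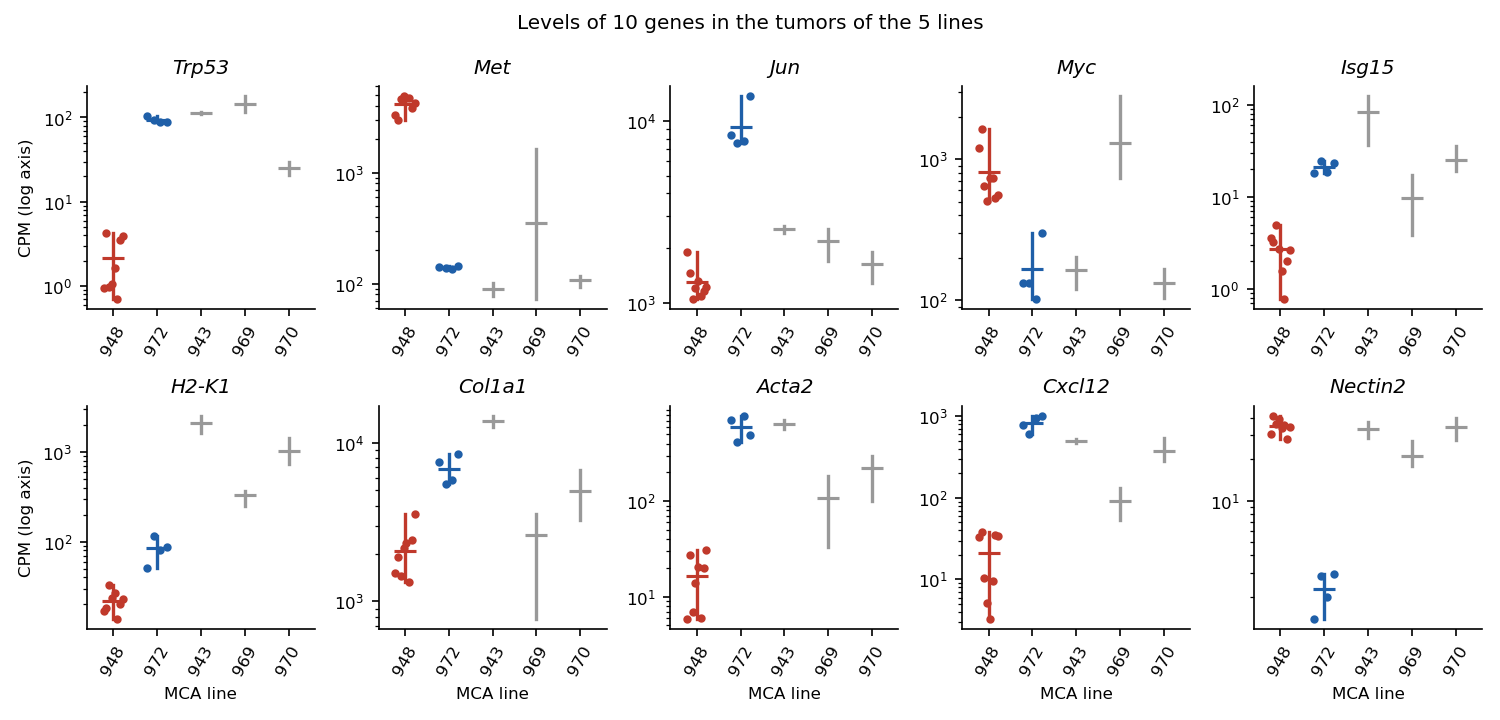
TMM-scaled CPM on a log axis of 10 genes in the 5 lines, with a point per tumor for MCA-948 and MCA-972, bars from the lowest to the highest tumor and ticks at the mean. By mean, MCA-948 is the lowest line for Trp53, Isg15, Acta2 and Cxcl12 and the highest for Met, and MCA-972 is the highest for Jun and the lowest for Nectin2.

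The study's own comparison of sensitive with non-sensitive tumors, made on these samples, gave a longer list of genes, of which 11 were examined here. They are genes picked out in its text and protocadherins. Foxf2, Ndn and Wnt6, described above, are also on the longer list but not among the 11. The study found Plet1, Tnfsf11, Rasa4, Ifitm1 and Vsir higher in non-sensitive tumors and the rest higher in sensitive tumors. Of the 11, 2 were higher in MCA-948 and 3 higher in MCA-972 (4 and none with the series term without W-1D, 4 and 2 with the index term without W-1D). Pcdhgb7 and Pcdhgb2, protocadherins of 1 cluster whose annotated spans overlap, had 3.32 and 1.44. Other members of that cluster went the other way. The 6 neighbouring tested genes from Pcdhga6 to Pcdhga9 were all called higher in MCA-972, with a median log2 fold change of -2.56. Tnfsf11, the cytokine RANKL, read 0.360, 0.937 and 1.28 CPM in MCA-948 and 4.64, 3.08, 6.10 and 3.54 CPM in MCA-972 (log2 fold change -2.33, SE 0.54, adjusted p = 4.85e-04), Rasa4, a GTPase activator of Ras, had -1.56 and Ntm, a neural adhesion molecule, had -1.17, and all 3 were lost with the series term. The other 6 had log2 fold changes of -0.62 to 0.91.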

How the data were processed

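RNA sequencing of 30 fibrosarcoma tumors was deposited as 1 table of read counts per gene (48440 genes, 48058 of them named by GENCODE release 21, 32805 with a count). Per the labels and the study's methods, the authors aligned reads with STAR 2.5.3a to GRCm38 and counted them with featureCounts (1.5.2 in the submitters' processing notes), after removal of duplicates by molecular identifier per the file header. Annotation release and strand setting are not given in the sources used here.

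From the deposited counts, edgeR 4.0.16 in R 4.3.3 was run with its low-count filter, TMM scaling and robust quasi-likelihood fit on all 30 tumors with line as factor, so that the 5 lines shared 1 estimate of the spread (biological coefficient of variation 0.221). P-values were adjusted by Benjamini-Hochberg over 16862 genes. DESeq2 1.42.0 and limma 3.58.1 served as alternatives. Tables were made with pandas 2.3.3, scipy 1.17.1 and numpy 2.4.6 under Python 3.11.15 and plots with matplotlib 3.10.9. CPM are counts per 1000000 TMM-scaled counts with no prior. The fit was tested on counts simulated from its own fitted means and spread, with no effect of library run. That test cannot tell line from library run. Standard errors are the size of the log2 fold change over the square root of its F statistic. Floors of 3 counts per library and 95% intervals of count ratios cover counting error only.

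Named genes were the 12 with the largest fold change in each direction among called protein-coding genes of at least 5 CPM in the higher line and without overlap, called members of 29 gene lists from the largest change down, and genes picked out in the study's text. Results of a few genes are not reported here. Members and lists were chosen with earlier results of these data known. Same-coded tumors of the lines did not deviate together (median correlation of deviations 0.01 over 5 same-code pairs and 0.01 over 27 other pairs), so no pairing was used in the comparison. Nothing says that tumors of a line came from separate passages, so p-values measure the spread between tumors only. Promoters came from RefSeq (GRCm38.p6).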

Additional observations from a re-analysis of the deposited data

Results flagged for a closer look

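In 23 of 265 groups examined (8.68%) 1 tumor stood apart from the rest of its line by Dixon's criterion at the 95% level, where chance alone gives about 1 group in 20. No explanation was tested.

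MCA-972 a-R was the tumor that stood apart most often. It held 44.9 CPM of Agtr2 (20.4 to 22.3 in the other 3 tumors), 13700 CPM of Jun (7540 to 8320), 299 CPM of Myc (102 to 133) and 185 CPM of Eln (64.3 to 81.7). It also held 3.48 CPM of Rgs5 (1.27 to 1.43), 16.3 CPM of Mmp23 (9.46 to 10.4), 64.8 CPM of Lama2 (31.6 to 34.9) and 14.7 CPM of Itga6 (10.9 to 11.1). Igfbp2 at 26.7 CPM (15.5 to 17.1) and Tgfb1 at 28.7 CPM (22.3 to 23.2) completed the set, and in all of these the other 3 tumors lay lower. In MCA-972 a-1G, Cdh19 was low at 29.0 CPM (38.1 to 39.3), and in MCA-972 a-1, Tnfrsf14 was low at 0.491 CPM (1.14 to 1.23).

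In MCA-948, W-1D held 11.6 CPM of Ifit1 (0.744 to 3.85 in the other 7), 3.37 CPM of Igtp (0.304 to 1.59) and 80.9 CPM of H2-D1 (61.0 to 69.6), and its NK cell and ILC1 markers summed to 16.02 CPM, the highest of the 8. W-2G held 37.1 CPM of Acan (11.1 to 20.9), 6.12 CPM of Ccl28 (1.42 to 2.91) and 42.2 CPM of Bmp3 (22.9 to 30.8). The tumor a-R of this line held 78.5 CPM of Mmp3 (14.3 to 33.3), 108 CPM of Cdh13 (40.8 to 68.0), 11.4 CPM of Sfrp2 (2.38 to 5.50) and 19.5 CPM of Thbs4 (1.19 to 9.45). W-2D held 9.49 CPM of Krt8 (0.372 to 4.32).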

How the results depend on the processing

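The number of called genes, 4513 (1395 higher in MCA-948, 3118 in MCA-972), stayed within 1.5 times in the 12 tumors alone (4098), DESeq2 (5394), DESeq2 size factors (4500), limma-voom (4516), an adjusted p under 0.01 (4227), the index term (4158), letter a alone (4286) and no low-count filter (6044). It moved further with the series term (2830, as 853 and 1977), the series term without W-1D (2462, with 1445 in MCA-972), a log2 fold change of at least 2 (2061, as 341 and 1720), a mean of at least 1 CPM (2941, as 883 and 2058) and no fold threshold (10529, as 5077 and 5452). The cause of the moves with the series term was not tested. Leaving out 1 tumor at a time gave 4440 to 4598 (1356 to 1489 and 3079 to 3194). With the title code as a replicate block 4295 genes were called (1270 and 3025), and the block ended the calls of Wnt2, Cdc6 and Ntm among the named genes. The terms without W-1D were chosen after seeing the data.

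Of 170 named genes called, 99 kept the call in every setting in which they were tested, of 29 settings run. A mean of at least 1 CPM left 152 of the 170 tested, and the 12 tumors alone 168. With the series term without W-1D, which rests on 1 tumor, 49 lost it, among them Isg15, Ifit1, Igtp, Iigp1, Oas1a, Oas1b, Eln, Lox, Col1a1, Col1a2, Postn, Col11a1, Itga11, Cdh10, Thbs4, H2-T23, Raet1d, Cyp1b1, Bax and Pmaip1, and the sign turned for Wnt2 (5.20), Pcdh10 (2.57), Rspo3 (1.56), Col9a2 (1.05), Prg4 (0.0723), Mdfic (0.0640), Ntm (0.00539), Pvr (-0.0904) and Lsm8 (-0.71). Among genes not called the sign also turned as follows. Lsm8 had -0.00905 (index), -0.0958 (index without W-1D), -0.35 (series), -0.0190 (block), -0.12 (without the third series) and -0.00276 to 0.0960 with 1 tumor left out. Itgb3bp had 0.0494 with letter a alone, 0.0478 without the third series and -0.11 to 0.0290 with 1 tumor left out. Cdkn1a had 0.44 (series), 0.24 (series without W-1D), 0.32 (block), 0.45 (without the third series) and -0.27 to 0.15 with 1 tumor left out. Cdkn2a had 0.18 (index), 0.15 (index without W-1D), 0.45 (series), 0.33 (series without W-1D and without the third series), 0.0293 (letter a) and -0.15 to 0.04998 with 1 tumor left out. Pvr had -0.0416 with the index term without W-1D. Genes with under 4 counts in 1 line are limited by depth and carry intervals or bounds.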
